A study of Mus musculus with 24 samples.

Results

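The genes described here encode lysosomal enzymes and membrane proteins, the V-ATPase proton pump and the MiT/TFE transcription factors. They were taken by gene symbol from a list of 43, and all 43 had 1 row each among the 56205 rows of the count table. The samples were whole livers of 24 C57BL/6J mice, of which 12 received a methionine-choline deficient (MCD) diet and 12 the control diet for 20 weeks. Both sexes were used in equal numbers per diet, but no label gives the sex, age or batch of a single library, and the age at the start is not given for this diet. The MCD diet is deficient in methionine and choline, precursors of phosphatidylcholine, and is listed in the methods as rich in fat. It is a model of steatohepatitis with fibrosis, and no engineered allele is given for either group. The paper's results name a choline-deficient, amino acid-defined diet high in fat among its mouse models. Each library is one sample of whole-liver poly(A) RNA, so that p-values measure the spread between these samples.

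Lysosomes are the acidic organelles in which cells degrade proteins, glycans and lipids delivered by endocytosis, phagocytosis and autophagy. The V-ATPase acidifies the lumen, soluble acid hydrolases cut the cargo, activator proteins present lipids to them, and membrane transporters export the products. TFEB, TFE3 and MITF bind short E-box motifs in promoters of many lysosomal genes, and mTORC1 at the lysosomal surface restrains their entry into the nucleus. Hepatocytes use lysosomes for autophagy and lipid turnover, while Kupffer cells and other macrophages carry large lysosomal compartments for engulfed material.

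Total counts ran from 16388650 to 24915175 per library, and the values below are CPM, read counts relative to the size of their library, with sizes scaled by TMM, edgeR's trimmed-mean factor. CPM values are not divided by transcript length, so levels are compared between diets and not between genes. Control replicate 12 stood apart: its TMM factor was 0.642, against 0.792 to 0.973 in the other control libraries, and it held the fewest detected genes (17469). It was the highest or the lowest control library for 25 of the 42 members tested, and MCD replicate 2 was the highest or the lowest MCD library for 27. Hepatocyte markers were abundant throughout, and their sum over 7 genes ran from 70909 to 164058 CPM in control and from 52158 to 80017 CPM in MCD libraries.

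Of the 43 genes, 42 had enough counts to be tested with edgeR's quasi-likelihood test over all 14109 genes that passed its filter. The threshold was an FDR (Benjamini-Hochberg) no larger than 0.01 together with a log2 fold change beyond 0.5 in either direction. On these terms 12 members rose on the MCD diet (28.6% of the 42, against 19.2% of all genes tested) and 3 fell (7.14%, against 19.1%), and 27 were not past the threshold. The members that rose were Ctsk, Ctss, Cd68, Ctsd, Lgmn, Psap, Mitf, Ctsb, Atp6v1b2, Npc2, Hexa and Gusb, and those that fell were Npc1, Gaa and Lamp2. For 11 members every MCD library lay above every control library, which held for 9.5% of all genes tested, and for 1 member, Gaa, every MCD library lay below every control library, which held for 4.88%. The median log2 fold change was 0.16 over the 42 members and -0.10 over all genes tested.

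The count depended on how libraries were scaled. TMM factors ran from 0.642 to 0.973 in control and from 1.07 to 1.26 in MCD libraries, and scaling by total counts alone moved the median log2 fold change of all genes up by 0.37, and upper-quartile factors moved it up by 0.15. Total counts alone raised the log2 fold change of each of the 42 members, by 0.33 to 0.39. With total counts alone 22 members were higher (52.4%, against 32.2% of all genes tested) and 1 was lower (2.38%, against 6.01%). With upper-quartile factors 14 were higher (33.3%, against 23.1%) and 2 were lower (4.76%, against 12.1%). Under both, all 12 members named as higher stayed past the threshold. Without control replicate 12 the calls were the same 12 and the same 3. At a log2 limit of 1 with TMM factors 6 members were higher (14.3%), near the 13.2% of all genes tested, and 0 were lower, against 4.86%. With the FDR limit at 0.05 and no fold limit 20 were higher (47.6%, against 26.5%) and 9 were lower (21.4%, against 37.0%). These added Asah1, Ctsl, Galc, Idua, Naglu, Ppt1, Tfe3 and Tfeb as higher and Atp6v1h, Lipa, Mcoln1, Scarb2, Smpd1 and Tpp1 as lower.

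**Figure D1:**
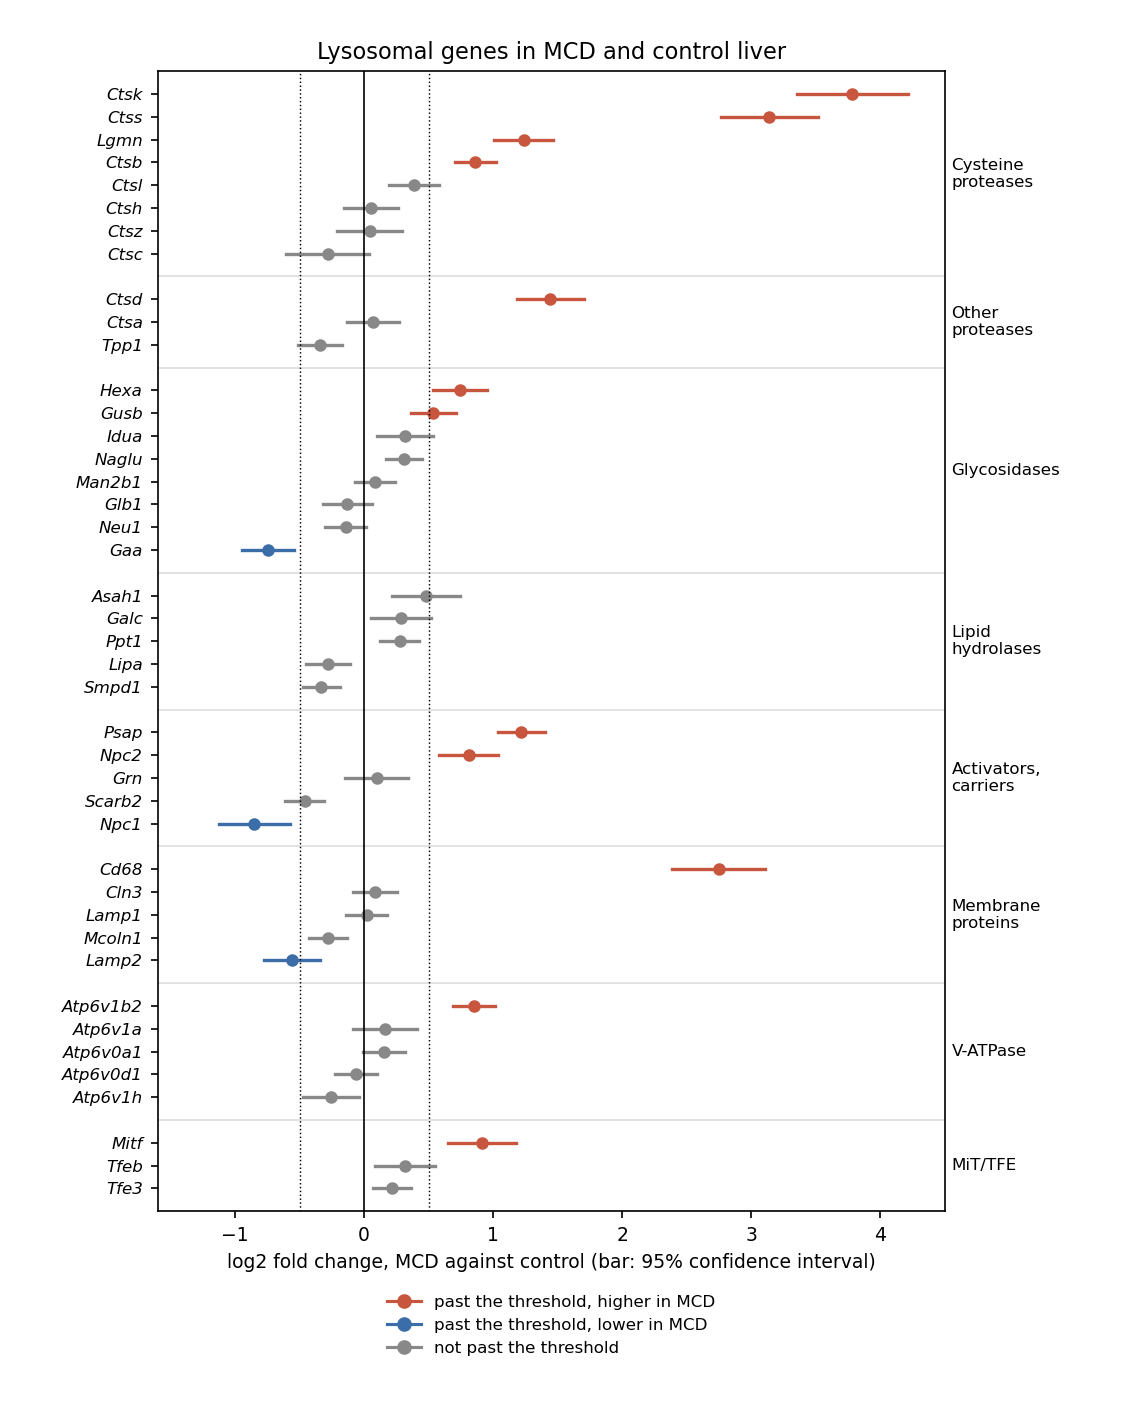
Log2 fold change of MCD against control (x axis) for the 42 members tested, grouped by role (right margin). Points are edgeR estimates, bars are 95% confidence intervals and dotted lines mark -0.5 and 0.5; Ctsk (3.78), Ctss (3.14) and Cd68 (2.75) stand far to the right of the rest, which lie between -0.85 and 1.44.

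Many markers of liver cell types moved with the diet, and they are given beside the 19.2% of all genes tested that rose and the 19.1% that fell. In whole liver more cells of a type and more RNA per cell cannot be told apart. All 10 macrophage markers rose, and their sum ran from 211 to 601 CPM in control and from 1444 to 3176 CPM in MCD libraries. All 8 markers of recruited macrophages rose as well, with sums of 47.6 to 211 CPM and 1107 to 2189 CPM, whereas 5 of 7 markers of resident Kupffer cells fell (sums of 155 to 462 CPM and 85.8 to 311 CPM). The highest macrophage sum was in control replicate 4 and in MCD replicate 2, the same libraries that were highest in Ctsk, Ctss and Cd68; the mesenchymal and neutrophil sums were also highest among controls in replicate 4, while the recruited macrophage sum was highest in control replicate 11 and MCD replicate 2. Control replicate 4 was the highest control library for 8 of the 42 members tested, and MCD replicate 2 the highest MCD library for 23. Without MCD replicate 2 Ctsk, Ctss and Cd68 had log2 fold changes of 3.75, 3.10 and 2.69.

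All 7 mesenchymal markers rose (sums of 136 to 402 CPM and 606 to 1068 CPM), as did all 5 cholangiocyte markers (4.23 to 17.2 CPM and 44.7 to 108 CPM), 3 of 6 lymphocyte markers (3.12 to 11 CPM and 8.87 to 18.5 CPM) and all 3 tested neutrophil markers of 5 (2.24 to 7.07 CPM and 12.2 to 32.9 CPM). In contrast, 5 of 6 endothelial markers fell (189.9 to 283 CPM and 105 to 175 CPM). Of 7 tested hepatocyte markers 2 fell, Alb and Ttr (28.6%, against 19.1% of all genes tested), and 5 were not past the threshold. Every marker with a row had reads in at least 1 library. The part of these cell types in the values of the lysosomal genes was not tested.

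Among the cysteine proteases, which are cathepsins and the asparaginyl endopeptidase legumain, 4 of 8 rose (50%, against 19.2% of all genes tested) and the others were not past the threshold. Ctsk, cathepsin K, the collagen-cutting protease of osteoclasts that macrophages and fibroblasts can also make, ran from 0.369 to 1.7 CPM (median 0.896) in control and from 9.97 to 18.8 CPM (median 11.3) in MCD libraries. Its groups were far apart, and the fitted level was 13.7-fold higher on the MCD diet (log2 fold change 3.78, SE 0.21, FDR = 2.2e-13). Control counts of Ctsk were low, from 6 to 32 reads per library. Ctss, cathepsin S, the protease that trims the invariant chain for antigen presentation, ran from 19.3 to 74.2 CPM (median 39.3) in control and from 276 to 549 CPM (median 332) in MCD libraries. It was 8.81-fold higher with no overlap (log2 fold change 3.14, SE 0.18, FDR = 4.8e-13). In both diets the library with the most Ctss, control replicate 4 and MCD replicate 2, was also the one with the most Ctsk and Cd68. These libraries were the highest of their diet for 8 and 23 of the 42 members tested, respectively.

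Lgmn, legumain, which also activates other cathepsins, ran from 40.5 to 85.8 CPM (median 61.6) in control and from 118 to 176 CPM (median 145) in MCD libraries and was 2.36-fold higher (log2 fold change 1.24, SE 0.11, FDR = 5.5e-10). Ctsb, cathepsin B, an abundant protease of hepatocytes and macrophages alike, ran from 792 to 1074 CPM (median 930.5) in control and from 1469 to 2208 CPM (median 1625) in MCD libraries. Its rise was 1.82-fold (log2 fold change 0.86, SE 0.08, FDR = 5.4e-10), without overlap. The exons of Ctsb overlap those of Fdft1 on the other strand, and since it is not stated whether strand was used in counting, reads of this pair cannot be told apart with certainty; Fdft1 itself was lower in MCD (log2 fold change -0.69).

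The other 4 cysteine cathepsins were not past the threshold. Ctsl, cathepsin L, ran from 474 to 821 CPM (median 581) in control and from 623 to 934 CPM (median 796) in MCD libraries, a log2 fold change of 0.39 (SE 0.09, FDR = 0.00082) under the fold limit. It passed the threshold with upper-quartile factors (0.53, FDR = 3.6e-05) and with total counts alone (0.73, FDR = 1.2e-06). Exons of Ctsl overlap another model on its own strand, which makes its counts uncertain. Ctsh, an aminopeptidase, had a log2 fold change of 0.06 (95% interval -0.15 to 0.26), and Ctsz, a carboxypeptidase, one of 0.04 (-0.21 to 0.29). Control replicate 12 decided the upper end of Ctsz in control, at 778 CPM against at most 399 in the other 11, and without it the log2 fold change of Ctsz was 0.22. Ctsc, dipeptidyl peptidase 1, which activates the serine proteases of neutrophils and other granulocytes, was -0.28 with a wide interval (-0.60 to 0.04). With a covariate for sex-linked expression it was -0.26 (FDR = 0.0219), also not past the threshold.

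Of the aspartic and serine proteases, Ctsd rose (33.3% of the 3 tested, against 19.2% of all genes tested). Ctsa and Tpp1 were not past the threshold, and Ctse could not be tested. Ctsd, cathepsin D, the main aspartic protease of lysosomes, ran from 388 to 889 CPM (median 575) in control and from 1275 to 2363 CPM (median 1494) in MCD libraries. The diets did not overlap and the fitted level was 2.72-fold higher (log2 fold change 1.44, SE 0.13, FDR = 3.1e-10). The highest control value came from replicate 12, and without that library the log2 fold change was 1.55. Exons of Ctsd overlap another gene model on the same strand, so part of its reads may be shared. Ctsa, the protective protein of neuraminidase and beta-galactosidase, had a log2 fold change of 0.07 (-0.13 to 0.27), and Tpp1, tripeptidyl peptidase 1, one of -0.34 (FDR = 0.00076), below the fold limit and -0.0029 with total counts alone. Ctse, cathepsin E, which is found mainly in stomach and immune cells, had 0 to 9 reads per control library and 3 to 10 per MCD library, too few for the filter, and 3 reads was taken as the floor of what a library resolves.

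**Figure D2:**
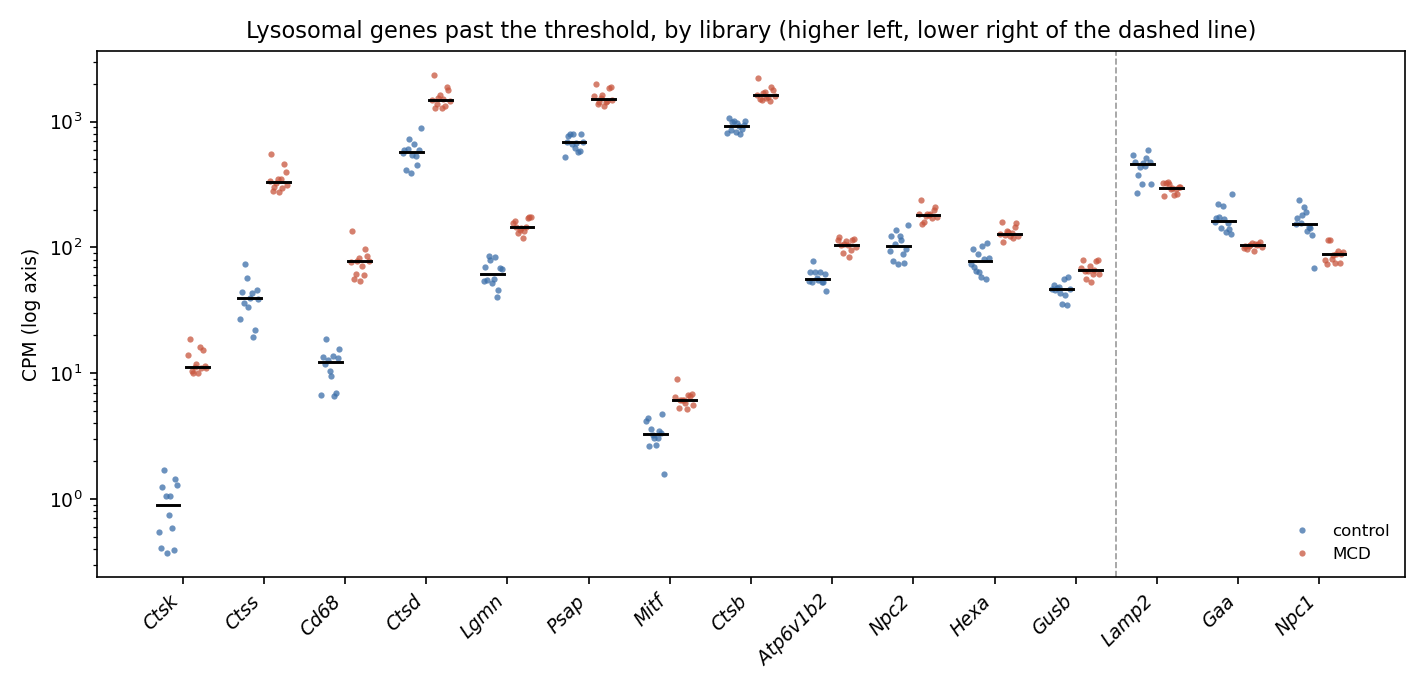
CPM on a log axis for the 15 members past the threshold, 1 point per library (blue control, red MCD, in replicate order) with the median as a black bar. Members higher in MCD are left of the dashed line and overlap with control only for Gusb; on the right, Npc1 overlaps through 1 control library at 68 CPM and Lamp2 overlaps more widely.

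Of the 8 glycosidases 2 rose (25%), 1 fell (12.5%) and 5 were not past the threshold, shares near those of all genes tested (19.2% and 19.1%). Hexa, the alpha subunit of the beta-hexosaminidase that cuts gangliosides, ran from 56.4 to 109 CPM (median 77.2) in control and from 111 to 161 CPM (median 128) in MCD libraries, a 1.68-fold rise without overlap (log2 fold change 0.74, SE 0.10, FDR = 6.5e-07). Gusb, beta-glucuronidase, ran from 35.1 to 58.2 CPM (median 46.3) in control and from 52.6 to 79.8 CPM (median 65.8) in MCD libraries. Here 10 of 12 MCD libraries were above every control library, and the log2 fold change of 0.54 (SE 0.09, FDR = 5.6e-06) was only just past the fold limit. Gaa, acid alpha-glucosidase, which breaks down glycogen in the lysosome, went the other way, from 127 to 266 CPM (median 163) in control to 93.7 to 110.2 CPM (median 104) in MCD libraries. All 12 MCD libraries were below all control libraries, and the level was 1.68-fold lower (log2 fold change -0.75, SE 0.10, FDR = 3.1e-07; log2 fold change -0.64 without control replicate 12, the highest of its group at 266 CPM). With total counts alone the log2 fold change of Gaa was -0.37, no longer past the limit. The other 5 had log2 fold changes from -0.14 (Neu1, a sialidase) through -0.13 (Glb1, beta-galactosidase), 0.09 (Man2b1, alpha-mannosidase) and 0.31 (Naglu, which cuts heparan sulfate) to 0.32 (Idua, which cuts dermatan and heparan sulfate). With total counts alone Naglu (0.68, FDR = 4.9e-10) and Idua (0.66, FDR = 0.00018) were past the threshold.

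The 5 lipid hydrolases were not past the threshold in this test, although all 5 had an unadjusted p under 0.05 (3 higher, 2 lower, against 27.7% and 39.0% of all genes tested). At an FDR limit of 0.05 with no fold limit all 5 passed, in the same directions. At the main threshold Asah1 passed as higher in 8 other fits that kept all libraries, and Galc and Ppt1 did so with total counts alone. Asah1, acid ceramidase, came nearest, at 16.6 to 50.6 CPM (median 36.9) in control and 44.5 to 58.8 CPM (median 49.7) in MCD libraries (log2 fold change 0.48, FDR = 0.00212). The fits that called it at that threshold were DESeq2, limma-voom, the replicate block (0.54, FDR = 0.00183), each of the 3 other scalings, no filter on low counts and at least 10 counts in every library. Galc and Ppt1, which remove galactose from galactosylceramide and palmitate from proteins, had log2 fold changes of 0.28 and 0.28, which were 0.65 (FDR = 7.9e-05) and 0.63 (FDR = 8.8e-06) with total counts alone. Lipa, the acid lipase that hydrolyses cholesteryl esters and triglycerides in lysosomes, ran from 195 to 327 CPM (median 239) in control and from 173 to 227 CPM (median 194) in MCD libraries. That is a log2 fold change of -0.28 (95% interval -0.45 to -0.11, FDR = 0.00448), inside the fold limit, and the value was 0.08 with total counts alone. Smpd1, acid sphingomyelinase, was -0.33 (FDR = 0.00018) and lay under the whole control range in 11 of 12 MCD libraries, but its log2 fold change was 0.05 with total counts alone.

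Of the 5 activators and carriers, 2 rose (40%, against 19.2% of all genes tested), 1 fell (20%, against 19.1%) and 2 were not past the threshold. Psap, prosaposin, the precursor of the saposins that help hydrolases reach sphingolipids, ran from 524 to 797 CPM (median 684) in control and from 1333 to 1978 CPM (median 1523) in MCD libraries, and it was 2.33-fold higher with no overlap (log2 fold change 1.22, SE 0.09, FDR = 1.5e-11). Grn, progranulin, which binds prosaposin on its way to the lysosome, ran from 379.7 to 813 CPM (median 559.7) and from 511 to 631 CPM (median 606), respectively, with a log2 fold change of 0.10 (95% interval -0.14 to 0.34). NPC1 and NPC2 act in sequence to export cholesterol from the lysosome, NPC2 as the soluble carrier and NPC1 as the membrane protein, and their mRNAs changed in opposite directions. Npc2 ran from 73.1 to 150.2 CPM (median 102) in control and from 154 to 239.6 CPM (median 182) in MCD libraries, a 1.75-fold rise (log2 fold change 0.81, SE 0.11, FDR = 5.1e-07). Npc1 ran from 68 to 238 CPM (median 155) in control and from 73.7 to 115 CPM (median 88) in MCD libraries, a 1.8-fold fall (log2 fold change -0.85, SE 0.13, FDR = 5.1e-06). The 2 diets overlapped in Npc1 through control replicate 12 alone: the other 11 control libraries were at 125 CPM or more, and without that library the log2 fold change was -0.89. With total counts alone it was -0.52 (FDR = 0.0068), just past the fold limit. Scarb2, the membrane protein that carries glucocerebrosidase to lysosomes, had a log2 fold change of -0.46 (SE 0.07, FDR = 4.2e-06), within the fold limit, which was -0.092 (FDR = 0.235) with total counts alone.

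Among the 5 membrane proteins, Cd68 rose, Lamp2 fell (20% each way, near the 19.2% and 19.1% of all genes tested), and 3 were not past the threshold. Cd68, macrosialin, a LAMP-family glycoprotein of macrophage lysosomes, ran from 6.6 to 18.7 CPM (median 12.3) in control and from 53.6 to 134 CPM (median 77.7) in MCD libraries, 6.71-fold higher with no overlap (log2 fold change 2.75, SE 0.17, FDR = 1.8e-12). Lamp1, a widely used lysosome marker, ran from 521 to 859 CPM (median 692) in control and from 633 to 759 CPM (median 697) in MCD libraries, a log2 fold change of 0.02 (95% interval -0.14 to 0.18). Its relative Lamp2, which also serves in chaperone-mediated autophagy, ran from 269.8 to 592 CPM (median 458) and from 255 to 329 CPM (median 298), respectively, 1.47-fold lower (log2 fold change -0.56, SE 0.11, FDR = 5.2e-05). The groups overlapped for Lamp2, and its call was lost without control replicate 1 (-0.48), MCD replicate 2 (-0.49), MCD replicate 8 (-0.496) or MCD replicate 10 (-0.498), and also with total counts alone (-0.20), with upper-quartile (-0.41) or relative log expression (-0.49) factors, with DESeq2 (-0.49) and at least 10 counts in every library (-0.47). Mcoln1, the calcium channel TRPML1, had a log2 fold change of -0.28 (FDR = 0.00132), which was 0.08 with total counts alone, and Cln3, the protein of juvenile Batten disease, one of 0.08.

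**Figure D3:**
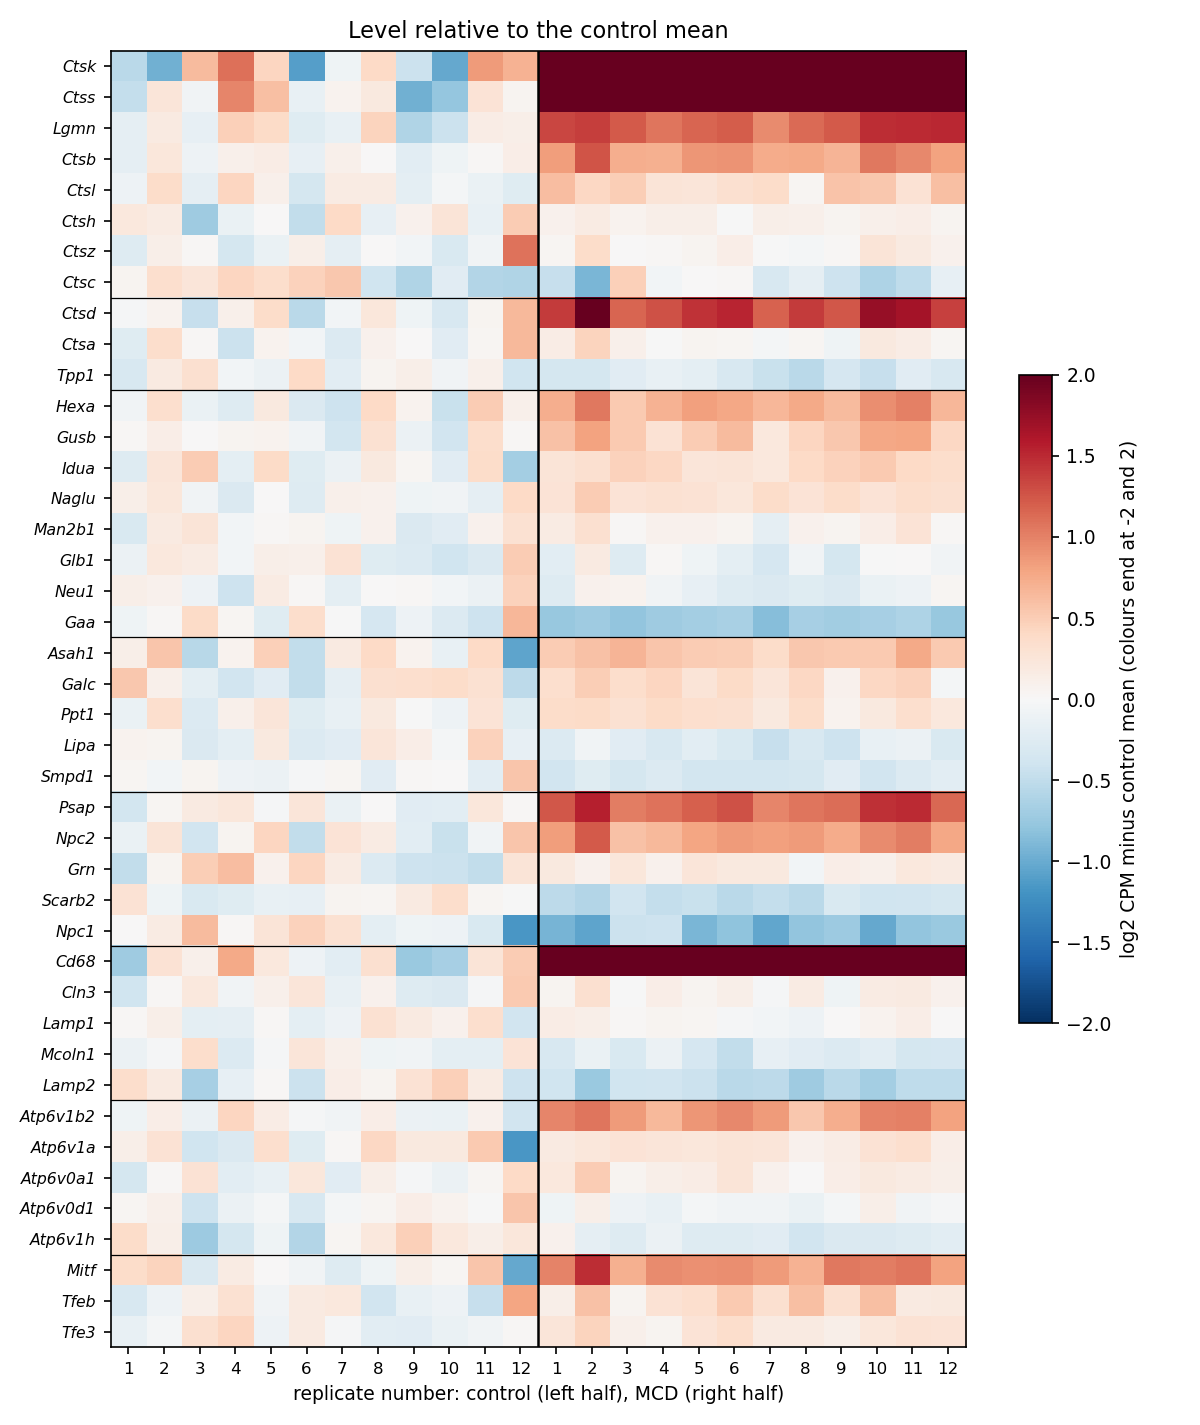
Log2 CPM of each tested member (rows, by role) minus its mean over the control libraries, in 24 libraries (columns, control left of the line, MCD right). Ctsk, Ctss and Cd68 are dark in every MCD library, Gaa, Npc1 and Lamp2 are pale to mid blue there, and control column 12 differs from its neighbours in Ctsz, Npc1, Atp6v1a and Mitf.

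Members were spread less widely over the MCD than over the control libraries. The coefficient of variation over 12 libraries was smaller in MCD for 41 of 42 members, with a median of 22.1% in control and 9.06% in MCD. Most of the table did the same: 90.0% of all 14109 genes tested also had the smaller coefficient in MCD (medians 26.7% and 14.2%). Without control replicate 12, 40 of 42 members and 80.7% of all genes did. Ctsh showed it well, at 119.9 to 278 CPM (median 203) in control and 195 to 219 CPM (median 210.5) in MCD libraries, nearly the same median with a much narrower range.

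The V-ATPase consists of a cytosolic V1 part that hydrolyses ATP and a membrane V0 part that passes protons, and several subunits exist as tissue-restricted isoforms. Of the 5 subunits among the members 1 was past the threshold, as higher (20%, near the 19.2% of all genes tested). It was Atp6v1b2, the V1 B subunit isoform found in most tissues. Its levels were 44.6 to 78 CPM (median 55.9) in control and 83.6 to 121 CPM (median 105) in MCD libraries. That is 1.81-fold higher without overlap (log2 fold change 0.85, SE 0.08, FDR = 8.2e-10). Atp6v1a, the catalytic A subunit that pairs with B, ran from 25.1 to 80.6 CPM (median 62.6) and from 59.7 to 70.4 CPM (median 66), respectively (log2 fold change 0.16, SE 0.12, FDR = 0.249), and its lowest control value was again replicate 12. Atp6v1h, a regulatory V1 subunit, ran from 29.7 to 68.2 CPM (median 53.3) and from 37.8 to 52.4 CPM (median 41.3) (log2 fold change -0.25, SE 0.11, FDR = 0.0393). Both of these overlapped widely between the diets. With total counts alone Atp6v1a (0.50, FDR = 0.004) and the V0 subunit Atp6v0a1 (0.52, FDR = 1.8e-05) were past the threshold as well.

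In the V0 part, Atp6v0a1, the a1 isoform of the proton-conducting stator, ran from 62.9 to 105 CPM (median 79.5) in control and from 80.4 to 113 CPM (median 88.2) in MCD libraries (log2 fold change 0.16, SE 0.08, FDR = 0.0871). Atp6v0d1, the widely expressed d isoform, ran from 66.8 to 131 CPM (median 89.4) and from 79.6 to 96.4 CPM (median 84.5) (log2 fold change -0.06, SE 0.08, FDR = 0.517); its sign turned with upper-quartile factors (0.09), total counts alone (0.32), a filter of 10 counts in each library (0.02) and without control replicate 12 (0.03). Of 14 further V-ATPase genes tested, 4 rose (28.6%, against 19.2% of all genes tested) and 10 were not past the threshold; at an unadjusted p under 0.05, 11 were higher and 1 was lower (27.7% and 39.0% of all genes tested), and DESeq2 and limma-voom each called 5 higher. The risers were isoforms or accessory chains of V0. Atp6v0d2, the d isoform known from osteoclasts and macrophages, ran from 0.832 to 10.5 CPM (median 3.14) in control and from 18.5 to 42.6 CPM (median 28.7) in MCD libraries (log2 fold change 2.85, SE 0.31, FDR = 1.4e-08). Tcirg1, the a3 isoform, ran from 55.7 to 132 CPM (median 63.9) and from 125 to 219 CPM (median 149) (log2 fold change 1.06, SE 0.13, FDR = 1.4e-07). Atp6v0e2 was low in control, at 0.303 to 1.75 CPM (median 0.972), and reached 3.83 to 12.4 CPM (median 7.47) in MCD libraries (log2 fold change 3.01, SE 0.22, FDR = 1.4e-11), and Atp6v0e had a log2 fold change of 0.70 (FDR = 3.4e-07).

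**Figure D4:**
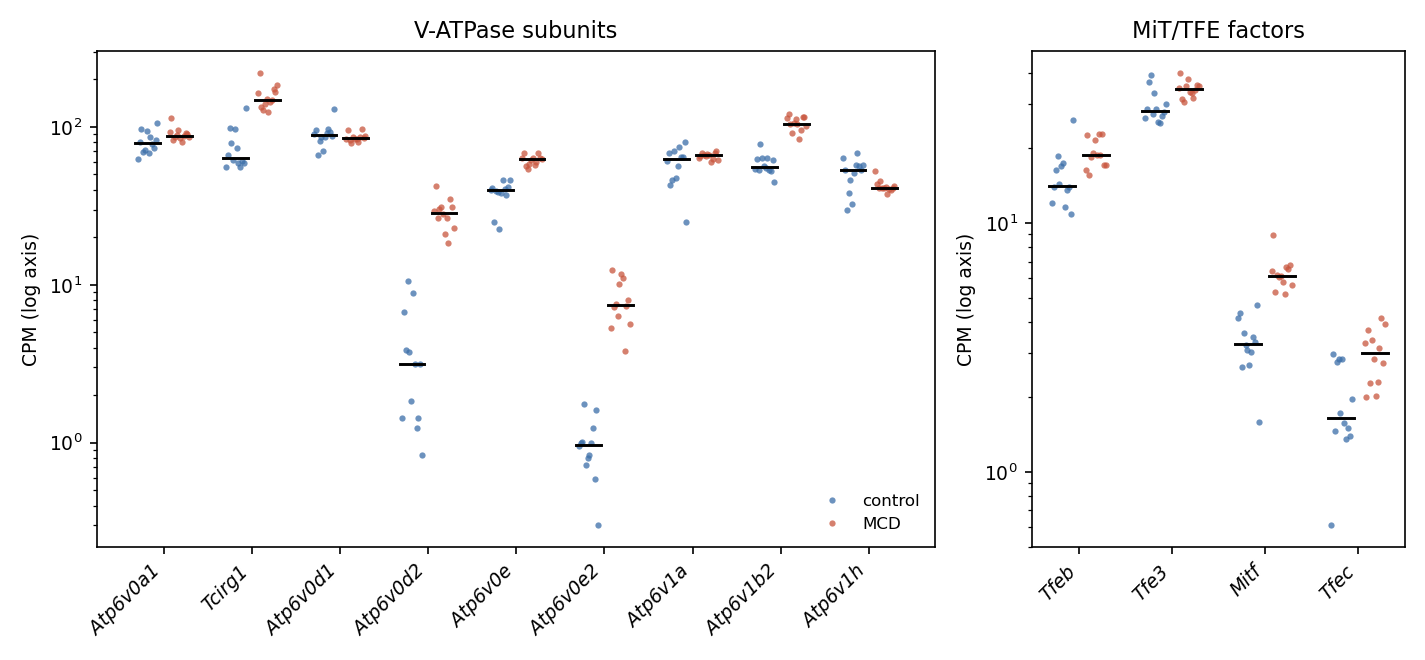
CPM on a log axis in each library (blue control, red MCD, median as a black bar) for V-ATPase subunits, with paired isoforms side by side, and for the MiT/TFE factors with their relative Tfec. Atp6v0d2 and Atp6v0e2 separate completely by diet while Atp6v0d1 and Atp6v0a1 overlap, and of the factors Mitf separates while Tfeb and Tfe3 overlap.

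The MiT/TFE factors had positive log2 fold changes in all 3 cases. Mitf alone was past the threshold with TMM factors (33.3% of the 3, against 19.2% of all genes tested). All 3 passed with total counts alone, where 32.2% of all genes tested were higher. Mitf, best known from melanocytes and osteoclasts, ran from 1.59 to 4.7 CPM (median 3.28) in control and from 5.19 to 8.91 CPM (median 6.15) in MCD libraries, 1.89-fold higher without overlap (log2 fold change 0.92, SE 0.13, FDR = 8e-07). Tfeb ran from 10.9 to 25.9 CPM (median 14.1) and from 15.7 to 22.7 CPM (median 18.8), respectively (log2 fold change 0.32, SE 0.11, FDR = 0.0169). Its highest value of all was control replicate 12, at 25.9 CPM, and without that library the log2 fold change was 0.44, under the fold limit, while it was 0.70 (FDR = 4.1e-06) with total counts alone and past the threshold. Tfe3 ran from 25.2 to 39.5 CPM (median 28.3) and from 30.6 to 39.9 CPM (median 34.6) (log2 fold change 0.22, SE 0.07, FDR = 0.0111), and it too passed with total counts alone (0.57, FDR = 1.8e-05). These are mRNA levels, and they do not show how much of a factor was in the nucleus.

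Of 15 genes that belong to the family or control it at the lysosome, 2 rose (13.3%, against 19.2% of all genes tested) and 5 fell (33.3%, against 19.1%). Rragd, a Rag GTPase that recruits mTORC1 to lysosomes, rose from 5.24 ± 3.62 to 18.1 ± 5.96 CPM (mean ± SD, n = 12 per diet; log2 fold change 1.78, SE 0.30, FDR = 1.5e-05), and the other riser was the factor Tfec (log2 fold change 0.63). The folliculin complex acts on Rag GTPases, and its 3 listed genes fell: Fnip2 went from 71.5 ± 28.9 to 36.3 ± 4.68 CPM (log2 fold change -0.98, SE 0.17, FDR = 1.4e-05), Fnip1 from 41.4 ± 8.96 to 23.1 ± 4.04 CPM (log2 fold change -0.84, SE 0.12, FDR = 1e-06) and Flcn from 45.4 ± 10.9 to 26.6 ± 4.5 CPM (log2 fold change -0.77, SE 0.12, FDR = 2.8e-06). The mTORC1 kinase Mtor (log2 fold change -0.73) and its partner Rptor (-0.62) were the others that fell, and for both all 12 MCD libraries were below all control libraries. These values are with TMM factors. Total counts alone moved the median log2 fold change of all genes up by 0.37, and the falls are not given under that scaling.

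The palindromic E-box CACGTG and its extension TCACGTGA, which contains it, were searched in RefSeq promoters of GRCm38.p6, from 250 bases before to 50 after each start. Both motifs read the same on either strand. Of the 43 members, 36 had an entry, and where a gene had several starts a match in any of them was counted; Asah1, Atp6v1b2, Atp6v1h, Ctsb, Ctse, Ctsh and Npc1 had no entry. CACGTG was present for 12 of 36 members (33.3%), against 8.09% of 27025 genes with a promoter and 11.6% of the tested genes among them. TCACGTGA was present for 6 of 36 (16.7%), against 1.12% and 2.12%: Ctsa, Ctsd, Cln3, Mcoln1, Atp6v0d1 and Atp6v1a. Of the 12 members with CACGTG, 2 rose (Ctsd and Lgmn), 1 fell (Gaa) and 9 were not past the threshold; of the 24 without it, 8 rose, 1 fell (Lamp2) and 15 were not past it. The shares that rose were 16.7% and 33.3% and those that fell 8.33% and 4.17%, beside 19.2% and 19.1% of all genes tested. A match is a run of letters and not a shown binding site. Other E-box sequences were not searched, so a promoter without a match may still hold a site for these factors.

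From these promoters 6 are shown as the 100 bases before the start, 5′ to 3′ on the gene's strand, with CACGTG in capitals. They set 3 of the 12 members with the motif beside Ctsk, Ctss and Cd68, the 3 members with the highest log2 fold changes. Ctsd (chr7:142387828-142387927, minus strand), Mcoln1 (chr8:3500419-3500518, plus strand) and Lamp1 (chr8:13159061-13159160, plus strand) hold it, while Ctsk (chr3:95499110-95499209, plus strand), Ctss (chr3:95526686-95526785, plus strand) and Cd68 (chr11:69666171-69666270, minus strand) do not.
Ctsd: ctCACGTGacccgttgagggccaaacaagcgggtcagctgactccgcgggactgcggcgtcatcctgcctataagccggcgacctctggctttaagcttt
Mcoln1: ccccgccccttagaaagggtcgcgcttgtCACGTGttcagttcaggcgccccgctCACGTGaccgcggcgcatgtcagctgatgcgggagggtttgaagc
Lamp1: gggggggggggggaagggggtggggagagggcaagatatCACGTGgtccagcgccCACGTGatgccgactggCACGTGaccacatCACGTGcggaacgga
Ctsk: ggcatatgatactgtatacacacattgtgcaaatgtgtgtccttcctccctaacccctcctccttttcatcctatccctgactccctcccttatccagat
Ctss: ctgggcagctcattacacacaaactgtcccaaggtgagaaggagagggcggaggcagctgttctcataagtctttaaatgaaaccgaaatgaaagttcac
Cd68: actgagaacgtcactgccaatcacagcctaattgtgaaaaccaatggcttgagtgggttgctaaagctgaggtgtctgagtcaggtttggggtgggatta
Lamp1 has 4 copies, whose first bases lie 61, 45, 28 and 15 bases before the start, and its log2 fold change was 0.02. Mcoln1 has 2, at 71 and 45 bases before the start, and had a log2 fold change of -0.28. Ctsd has 1 in this stretch, 98 bases before the start, and rose by 1.44 on the log2 scale. Ctsk, Ctss and Cd68, with no copy in the window searched, had log2 fold changes of 3.78, 3.14 and 2.75.

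Ratios of 2 genes within a library do not depend on how libraries are scaled, and pairs were chosen after their values had been seen, so that they are given without a test. Psap had 0.973 to 2.09 reads per read of Grn in control and 2.19 to 3.51 in MCD libraries, with no overlap. Ctsd to Ctsa ran from 1.44 to 2.93 and from 4.27 to 6.18, and Ctss to Ctsl from 0.0362 to 0.0905 and from 0.328 to 0.68. In all 3 pairs every MCD library was above every control library. Npc2 to Npc1 had a median of 0.67 in control and 2.14 in MCD libraries; control replicate 12, at 2.21, lay within the MCD range of 1.35 to 3.25, while the other control libraries were at 0.853 or less. Lamp2 to Lamp1 went from a median of 0.632 to 0.434 and lay under the control range in 10 of 12 MCD libraries.

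Pairs of pump subunits and of MiT/TFE factors are given in the same way. Atp6v0d2 had a median of 0.0351 reads per read of Atp6v0d1 in control and 0.342 in MCD libraries, with the highest control library, replicate 4, at 0.129 and the lowest MCD library at 0.215. Tcirg1 to Atp6v0a1 went from a median of 0.876 to 1.72, also without overlap. Atp6v1b2 to Atp6v1a overlapped, at 0.763 to 1.77 in control and 1.37 to 1.86 in MCD libraries, of which 2 of 12 were above the control range. Mitf to Tfe3 overlapped as well, with 8 of 12 MCD libraries above the control range. Mitf to Tfeb did not separate, at 0.0614 to 0.432 in control and 0.228 to 0.397 in MCD libraries.

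**Figure D5:**
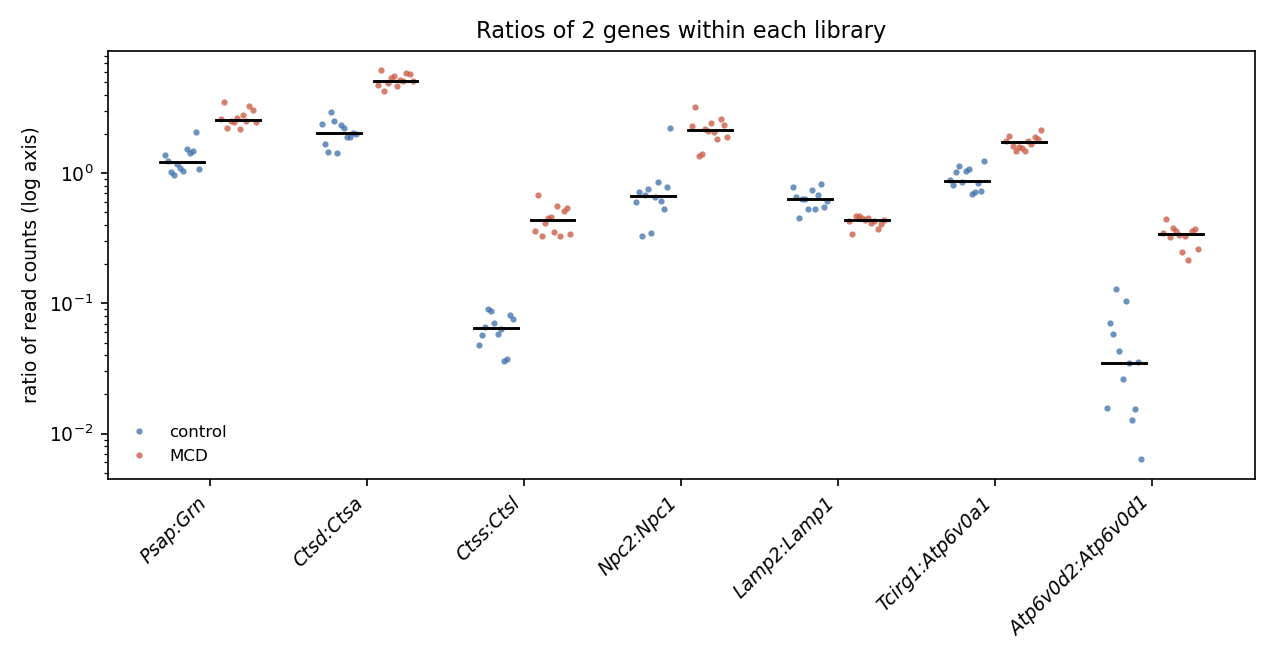
Ratio of the read counts of 2 genes in each library on a log axis (blue control, red MCD, median as a black bar). Psap:Grn, Ctsd:Ctsa, Ctss:Ctsl, Tcirg1:Atp6v0a1 and Atp6v0d2:Atp6v0d1 separate by diet, and Npc2:Npc1 does so apart from 1 control library at 2.21.

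Of 108 other genes of the lysosome and of autophagy tested from 7 lists, 20 rose (18.5%, against 19.2% of all genes tested) and 14 fell (13.0%, against 19.1%). The values of these genes are with TMM factors, and with total counts alone 6.01% of all genes tested were lower. Among 5 tested cathepsins and inhibitors outside the members, 3 rose (60%), namely Ctsw, a protease of cytotoxic lymphocytes, Cstb and Cst3. Cstb, the cytosolic inhibitor stefin B, went from 31.8 ± 9.44 to 98.7 ± 15.4 CPM (log2 fold change 1.63, SE 0.14, FDR = 3.3e-10). Of 29 further acid hydrolases 5 rose (17.2%) and 2 fell (6.90%). Gla, the alpha-galactosidase of Fabry disease (log2 fold change 1.30, SE 0.14, FDR = 6.7e-09) and Galns, which desulfates keratan sulfate (log2 fold change 1.11, SE 0.15, FDR = 5.7e-07) rose, while Hyal1, a hyaluronidase, fell (log2 fold change -1.14, SE 0.17, FDR = 1.3e-06). Exons of Hyal1 overlap those of Hyal3 and Naa80 on the same strand, which makes its counts uncertain.

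Of 21 further lysosomal membrane genes 5 rose and 5 fell, 23.8% each way and near the shares of 19.2% and 19.1% among all genes tested. Cd63, a tetraspanin of late endosomes, ran from 3.71 to 27 CPM (median 9.22) in control and from 96 to 212 CPM (median 120.0) in MCD libraries (log2 fold change 3.39, SE 0.30, FDR = 4.4e-10). Tpcn2, a lysosomal cation channel, rose (log2 fold change 1.95, SE 0.11, FDR = 2.3e-13), as did Laptm5, a lysosomal protein of blood cells (log2 fold change 1.93, SE 0.17, FDR = 5.1e-10), and Slc11a1, the metal transporter of phagosomes (log2 fold change 1.76, SE 0.15, FDR = 2.1e-10). Tmem106b, Abcb9, Tpcn1, Slc17a5 and Mfsd8 were the 5 that fell, by 0.56 to 0.95 on the log2 scale. Of 10 sorting genes 1 rose (10%, against 19.2% of all genes tested), and the others were not past the threshold. The riser was Sort1, sortilin (log2 fold change 1.51, SE 0.13, FDR = 4.3e-10).

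Of 14 autophagy genes tested, Ulk1, the kinase that starts autophagosome formation, fell from 155 ± 37.2 to 82.5 ± 12.2 CPM (log2 fold change -0.91, SE 0.11, FDR = 1.3e-07) with no overlap, and Gabarapl1, an autophagosome membrane protein, fell (log2 fold change -0.52, SE 0.08, FDR = 5.4e-06). These 2 were 14.3% of the list, against 19.1% of all genes tested. The remaining 12 were not past the threshold with edgeR, although 2 of them had an unadjusted p under 0.05 as higher and 4 as lower (27.7% and 39.0% of all genes tested). DESeq2 called 1 lower and limma-voom 2.

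Further exon overlaps touch the members. On the same strand Glb1 overlaps Tmppe. On the opposite strand, annotated exons of Ctsl, Ctsz, Ctsa, Hexa, Idua, Galc, Ppt1, Grn, Npc1, Lamp1, Cln3 and Atp6v1h meet those of another gene, and their counts are uncertain to that extent.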

How the data were processed

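Whole-liver poly(A) RNA of 24 mice was sequenced. The authors deposited raw read counts per Ensembl gene, 1 column per library, unnormalized; per the labels STAR 2.7.3a, bcl2fastq and the mm10 build were among the processing tools, while the counting program and its use of strand are not given for the mouse libraries in the sources used here. The study's methods name a stranded mRNA kit, and for reads aligned to the human genome the exon quantification pipeline and PISCES; whether the mouse counts were made that way is not stated. Symbols and exon overlaps came from GENCODE mouse release M21 and promoters from RefSeq. Rows without a symbol held 0.0808% of counts and were kept.

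Counts were analysed in R 4.3.3 with edgeR 4.0.16 (filterByExpr by diet, TMM, glmQLFit and glmQLFTest, no covariate), with FDR values over all 14109 genes tested. SEs were derived from the F statistic, and intervals are at 95%. Members and lists were chosen with earlier results of these data known. Full values are given for members past the threshold (at most 12 higher and 6 lower), the MiT/TFE factors and the V-ATPase subunits, and at most 4 genes are named with values from each other list. Fdft1 and the genes that complete a short list of calls (Tfec, Mtor, Rptor and the membrane genes that fell) were named after their values were seen. 1 listed gene is not reported here. Depth was 16388650 to 24915175 counts per library, and the floor of 3 counts covers counting error only. Alternatives were other scaling factors and filters, DESeq2 1.42.0, limma-voom (limma 3.58.1), the replicate number as a block, a covariate for sex-linked expression, other thresholds and leaving out each library in turn. Figures were drawn with matplotlib 3.10.9.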

Additional observations from a re-analysis of the deposited data

How the results depend on the processing

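When each library was left out in turn, there were 12 to 13 members higher, 2 to 3 lower and 32 to 36 other lysosome and autophagy genes past the threshold. In those fits 19% to 21.5% of all genes tested were higher and 15.8% to 19.8% were lower. With total counts alone 22 members were higher and 1 was lower (32.2% and 6.01% of all genes tested). With the FDR limit at 0.05 and no fold limit 20 were higher, 9 lower and 72 other genes past it (26.5% and 37.0% of all genes tested were higher and lower). At a log2 limit of 1 these counts were 6, 0 and 16, with edgeR (13.2% and 4.86% of all genes were higher and lower). With edgeR at an unadjusted p under 0.05 and no fold limit 20 members were higher and 9 lower (27.7% and 39.0% of all genes). At the limit of 0.5 DESeq2 called 13 higher and 2 lower (20.9% and 16.1% of all genes). There limma-voom called 13 higher and 3 lower (20.3% and 17.4% of all genes). No label states that libraries of the same number are pairs, and the main fit did not take them as pairs. Of the 12 same-numbered pairs 8 correlated above 0.1 (-0.28 to 0.35, median 0.23, against a median of -0.06 for other pairs). The source of the higher median was not tested, and 2 of 12 control libraries correlated best with their own number. A replicate block gave 13 members higher, 3 lower and 33 other genes (19.7% and 17.2% of all genes tested were higher and lower). A sex-linked score as covariate gave the same 12 and 3 (19.7% and 19.2% of all genes tested were higher and lower).

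Over 377 fold changes of single members under the other settings that leave no library out, 341 kept direction and side of the threshold, 18 moved past it, 6 no longer passed and 12 changed sign; of 1008 with a library left out, 987, 15, 4 and 2 did. Members that changed sign with total counts alone were Atp6v0d1 (0.32, FDR = 4.9e-05), Atp6v1h (0.12), Ctsc (0.0579), Glb1 (0.24), Lipa (0.0763), Mcoln1 (0.0813), Neu1 (0.23, FDR = 0.0055) and Smpd1 (0.0488). With upper-quartile factors they were Atp6v0d1 (0.0927), Glb1 (0.0192) and Neu1 (0.0102). With at least 10 counts in every sample Atp6v0d1 (0.024) changed sign, as it did without control replicate 12 (0.034). Without control replicate 6 Lamp1 (-0.00115) did. Over all fits with a library left out Atp6v0d1 ran from -0.0926 to 0.034 and Lamp1 from -0.00115 to 0.077. Asah1 passed in 15 of the fits that leave a library out, with log2 fold changes just above 0.5. Requiring 10 counts in all libraries removes Ctsk, whose control counts reach 6. The cause of the shifts between scalings was not tested. Depth limits Ctse, and to a lesser degree Ctsk in control.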
